A study of Drosophila melanogaster with 9 samples.

Results

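Flies carrying Dube3a in glia were compared with flies carrying the same transgene and no driver, over all genes that could be tested. Dube3a is the fly counterpart of the ubiquitin ligase UBE3A and is listed as Ube3a in the gene table. In people, loss of UBE3A causes Angelman syndrome, and extra copies accompany a form of autism with seizures. The comparison used 6 of the 9 RNA sequencing libraries of the study, 3 with repo-GAL4 and UAS-Dube3a (the glial line) and 3 with UAS-Dube3a alone (the control). The other 3 libraries, in which elav-GAL4 drove the transgene in neurons, entered the fit to help estimate the spread and are quoted only beside a glial value. Every group carried the transgene, and no library carried a driver without it. The effects of the driver insertion, of any other genetic difference between the lines and of Dube3a therefore cannot be told apart. The insertion used is called Das45 in the labels, where the control is w_Das45 and the glial line Repo_Das45. The flies were grown at 25 °C and taken 3 to 5 days after eclosion. The labels name brain as the tissue, whereas the design text describes RNA from pools of 15 to 25 heads. They do not say whether the libraries of a genotype came from separate crosses, so p-values measure only the spread among these samples, 3 a group.

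Glia are the supporting cells of the nervous system. In the fly they form the blood-brain barrier, wrap neurons, clear transmitters from synapses and the visual system, and trade metabolites and ions with neurons. The transcription factor repo is made in nearly all glia, and its regulatory DNA drives GAL4, a yeast activator that switches on genes placed behind UAS sites. Glia are a small part of the head, so these libraries mix glial RNA with that of neurons, photoreceptors, fat body, cuticle-forming cells and blood cells. In such samples fewer cells of a type and less RNA per cell cannot be told apart.

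Total counts were 38554008, 35550949 and 37359569 for the controls, against 60322417, 39205825 and 38070711 for the glial line. Levels are given below as CPM, counts scaled to a depth of 1000000 after TMM adjustment, always in the order of libraries 1, 2 and 3. Libraries of the same group differed in the levels of some tissue markers. The summed level of 26 gut markers ran from 3100 to 72300 CPM among controls and from 3050 to 70700 CPM among glial libraries, with no gut marker at 0 in all libraries. Fat body markers summed to between 91800 and 154000 CPM in controls and between 47400 and 165000 CPM in glial libraries. Most of this sum came from the yolk protein genes Yp1, Yp2 and Yp3. These made up 14.1, 8.62 and 9.26% of all counts in controls and 4.16, 13.53 and 12.48% in glial libraries. Muscle markers summed to between 12900 and 13300 CPM in controls and between 10100 and 17500 CPM in glial libraries. Neuronal markers were all present, at sums of 3370 to 3530 CPM in controls and 2850 to 3510 CPM in the glial line. Photoreceptor markers, which belong to the eye, were all present too and summed to 54300 to 62800 against 50200 to 71100 CPM, so the libraries hold eye RNA, as whole heads would, although the tissue label names the brain. The sum of 16 glial markers was 3990 to 4390 CPM in controls and 2810 to 3800 CPM in the glial line. Their part in the results was not tested beyond a fit with gut level as a covariate, which called 496 genes.

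Ube3a, the gene of the transgene, read 30.6, 33.8 and 39.6 CPM in the controls and 220.0, 189 and 219 CPM in the glial line. The groups did not overlap, and the level was 6.04-fold higher (log2 fold change 2.59 ± 0.15, adjusted p = 8.37e-05, edgeR quasi-likelihood test). The neuronal libraries, at 72.8, 61.5 and 76.9 CPM, lay between the groups. The deposited table held 1 Ube3a transcript, so reads of the transgene and of the gene in the genome are counted together. The eye pigment transporter gene w read 19.5, 20.8 and 21.7 CPM in controls and 154, 172 and 189.9 CPM in the glial line (log2 fold change 3.06 ± 0.13, adjusted p = 1.38e-05). The labels do not say whether the insertions carry a copy of w. Reads of such a copy would be counted with those of the gene in the genome. The glial transcription factor repo read 49.7, 54.5 and 46.8 against 29.7, 43.8 and 39.3 CPM and did not pass the test (log2 fold change -0.42 ± 0.21, adjusted p = 0.3), and both it and w overlap another annotated gene. The neuronal RNA-binding gene elav, at 57.7, 63 and 56.5 against 63.9, 71.9 and 60.5 CPM, did not pass either (log2 fold change 0.15 ± 0.10, adjusted p = 0.486).

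Of 11430 genes tested, 505 differed between the glial line and the control at an adjusted p under 0.05, which is 4.42% of the genes tested. Of these 290 were higher in the glial line (2.54%) and 215 were lower (1.88%), and 2280 genes had an unadjusted p under 0.05. All 505 had groups that did not overlap, as did 2854 of all genes tested (25.0%). Over all genes the median log2 change was 0.01. At least a 4-fold change was seen in 86 of the called genes, 55 higher and 31 lower, and the smallest called change was 0.41 on the log2 scale. A further 86 genes reached 4-fold with a mean of at least 20 counts and were not called, 69 of them higher. Scaling to library totals in place of TMM moved the median of all genes to -0.10 and left 281 calls, of which 126 were higher, so the split between directions depends on the scaling. Leaving out control library 1, 2 or 3 brought the number called to 181, 296 and 283, and leaving out glial library 3 or neuronal library 3 brought it to 254 and 334. Of the 505 genes 216 overlap another annotated gene, and reads of a shared stretch cannot be assigned, since the handling of strand is not given in the sources used here.

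Each call was repeated under 16 alternatives: other scalings, tests and filters, the level of gut markers as a covariate, the 6 libraries fitted alone, and each of the 9 libraries left out in turn, written below as without control 1 and so on. Under all 16, 67 higher and 88 lower genes remained called, and the sign of a called gene did not reverse in any of them. Genes below are of this kind unless a sentence says where the call was lost. The plot of fold change against level shows both kinds. Shares called on lists and in families count every call, also those lost in some alternatives. All lists and families were chosen with earlier results of these data known, so their shares are descriptions and not tests.

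**Figure D1:**
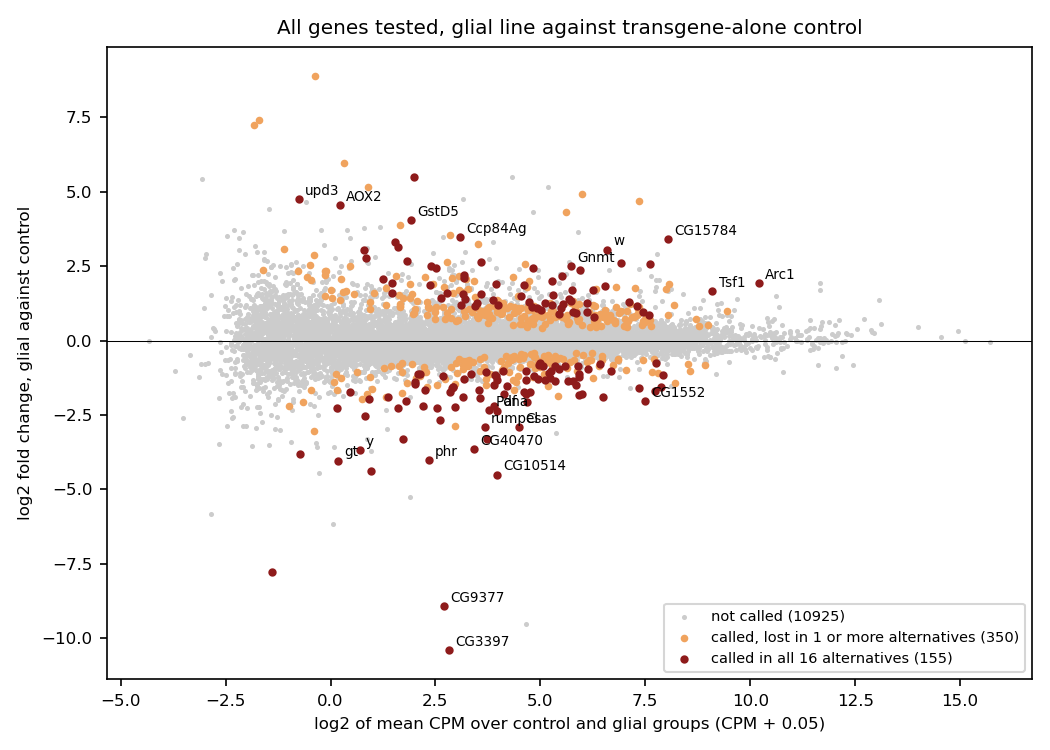
Log2 fold change of the glial line against the control for the 11430 genes tested, plotted against the log2 of their mean CPM over both groups. The genes called under all 16 alternatives (dark red) lie on both sides of 0, and the called genes with the lowest fold changes are CG3397 and CG9377.

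Called genes were spread over the chromosome arms, at 4.53% of genes tested on 2L, 4.26% on 2R, 4.3% on 3L, 4.95% on 3R and 3.86% on X. The small chromosome 4 had 2 lower and 0 higher calls among 88 genes. Protein-coding genes gave 277 higher calls among 10582 tested, with 4.55% called in either direction. Among antisense RNA genes 9 of 332 were called (2.71%) and among long noncoding RNA genes 7 of 320 (2.19%).

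Several genes that were lower in the glial line encode transporters and enzymes. In the eye, photoreceptors release histamine, glia couple it to beta-alanine, and the product returns to the photoreceptor. Of 9 tested genes of this cycle, a list assembled after values were seen, 3 were lower and 0 higher (33.3% against 4.42% of all genes), with a median log2 fold change of -0.20.

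The beta-alanine transporter gene Balat read 9.41, 7.84 and 11 CPM in controls and 1.83, 1.61 and 2.52 CPM in the glial line. Every glial library lay below every control, at a level 4.76-fold lower (log2 fold change -2.25 ± 0.22, adjusted p = 0.00114), while the neuronal libraries read 11.6, 9.08 and 11.3 CPM. The gene b encodes the aspartate decarboxylase that makes beta-alanine. It read 43.5, 38.6 and 34.8 CPM in controls and 8.78, 9.16 and 15.6 CPM in the glial line (log2 fold change -1.81 ± 0.22, adjusted p = 0.00296), again without overlap. The third gene, e, encodes the enzyme that joins beta-alanine to histamine and dopamine, and read 143, 134 and 139 against 91, 74.8 and 107 CPM (log2 fold change -0.61 ± 0.14, adjusted p = 0.0417). Its call was lost without control 1, 2 or 3, glial 1 or 2 or neuronal 1, 2 or 3 or with the 6 libraries alone (adjusted p = 0.0594 to 0.149). The other tested members, among them the histamine-making and histamine-sensing genes, did not pass.

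rumpel and bumpel encode SLC5-type solute transporters described in fly glia. rumpel read 18.9, 17.7 and 30.9 CPM in controls and 3.71, 2.21 and 3.1 CPM in the glial line, a level 7.46-fold lower (log2 fold change -2.90 ± 0.34, adjusted p = 0.00242). The neuronal libraries, at 32.6, 15.9 and 25.9 CPM, spanned the control range, and the log2 difference of the glial from the neuronal line was -3.04 ± 0.34, adjusted p = 0.00238. bumpel read 43.6, 38.8 and 35.9 against 13.2, 14.4 and 23 CPM (log2 fold change -1.23 ± 0.20, adjusted p = 0.0112), and its call was lost without control 1 (adjusted p = 0.0546). The third gene of this trio, kumpel, was not called.

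2 enzymes of sialic acid and amino sugar metabolism were lower. Csas, the synthase that activates sialic acid for transfer to glycans, read 46.7, 40.1 and 32.5 CPM in controls and 3.57, 7.06 and 5.4 CPM in the glial line (log2 fold change -2.90 ± 0.34, adjusted p = 0.00248). Nagk, a kinase of N-acetylglucosamine, read 59.2, 63.1 and 53.8 against 20.4, 22.7 and 25.4 CPM (log2 fold change -1.36 ± 0.15, adjusted p = 0.00193). Neither gene's groups overlapped. The sialyltransferase SiaT, the last step of the same pathway, did not pass.

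ana encodes a glycoprotein secreted by glia that holds neural stem cells at rest in the larval brain. It read 28.3, 27.6 and 22.7 CPM in controls and 4.32, 5.48 and 5.66 CPM in the glial line, a level 5.1-fold lower (log2 fold change -2.35 ± 0.16, adjusted p = 0.000206), and 25.8, 27.4 and 23.1 CPM in the neuronal line. Sox21b, a transcription factor gene of the SoxB group, read 20.4, 26.5 and 21.8 against 9.81, 12.8 and 11.1 CPM (log2 fold change -1.03 ± 0.15, adjusted p = 0.00583). The astrocyte gene alrm fell from 343, 372 and 257 to 71.8, 119.5 and 112 CPM (log2 fold change -1.68 ± 0.25, adjusted p = 0.00667). All 3 genes lay below the control range in every glial library.

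Of 16 tested glial markers 2 were higher and 4 lower, which is 37.5% against 4.42% of all genes, with a median log2 fold change of -0.41. The lower ones were alrm, zyd, nrv2 and wrapper, the last 3 with log2 fold changes of -1.32 ± 0.15, -0.81 ± 0.14 and -0.73 ± 0.14 (adjusted p = 0.00232, 0.0138 and 0.0226). The nrv2 call was not kept without control 1 (adjusted p = 0.0654), and that of wrapper was not kept without control 1 or 2 or with the 6 libraries alone (adjusted p = 0.0586 to 0.0872). NLaz, a lipocalin made by glia, was higher, at 84.6, 83.3 and 74 CPM in controls and 172, 134 and 179 CPM in the glial line (adjusted p = 0.0187), except without control 1, 2 or 3 or glial 3 (adjusted p = 0.0588 to 0.0721). moody, a receptor gene needed for the blood-brain barrier, was higher too, at 109, 115 and 88.1 against 146, 264 and 242 CPM (log2 fold change 1.06 ± 0.24, adjusted p = 0.0401). Its call was lost without control 1, 2 or 3, glial 2 or 3 or neuronal 1 or 3 or with the 6 libraries alone (adjusted p = 0.053 to 0.135). moody was named after its values were seen and overlaps another annotated gene. The groups did not overlap for either gene.

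The ammonium transporter gene Rh50 read 107, 113 and 108 CPM in controls and 52.2, 66 and 70.9 CPM in the glial line (log2 fold change -0.80 ± 0.13, adjusted p = 0.00932). The amino acid transporter gene mnd read 20.8, 19.6 and 26.4 against 8.52, 8.23 and 10.1 CPM (log2 fold change -1.31 ± 0.17, adjusted p = 0.00318). Both were without overlap. Oatp58Dc, of the organic anion transporter family, read 30.5, 33.1 and 37.6 against 16.9, 18.8 and 14.1 CPM (log2 fold change -1.02 ± 0.14, adjusted p = 0.00477), and MFS9, of the major facilitator family, 33.6, 33.7 and 45.6 against 11, 8.4 and 14.4 CPM (log2 fold change -1.74 ± 0.22, adjusted p = 0.00296). wtrw, a TRP channel gene known for sensing moist air, read 82, 83.1 and 91.5 against 28.4, 32.7 and 30.2 CPM (log2 fold change -1.49 ± 0.11, adjusted p = 0.000226). Carbonic anhydrases interconvert carbon dioxide and bicarbonate, and 2 of 9 tested were lower and 0 higher (22.2% against 4.42% of all genes), at a median of -0.20, on a list assembled after values were seen. These were CAH7, at 45.4, 48.8 and 64.3 against 24, 16.3 and 26.1 CPM (log2 fold change -1.26 ± 0.20, adjusted p = 0.00975), and CAH9, at 18.6, 20.9 and 23.4 against 8.05, 11.4 and 8.63 CPM (log2 fold change -1.16 ± 0.18, adjusted p = 0.00881).

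Gabat, which breaks down the transmitter GABA, averaged 433 ± 39.7 CPM in controls and 162 ± 42.1 CPM (SD, n = 3) in the glial line (log2 fold change -1.41 ± 0.26, adjusted p = 0.02), and its call was lost without control 1 or 3 or glial 1 or 3 (adjusted p = 0.0521 to 0.0789). Several lower genes have no role named in the annotation. CG1552 read 269.9, 322 and 276 CPM in controls and 54.8, 60.2 and 95.7 CPM in the glial line (log2 fold change -2.04 ± 0.24, adjusted p = 0.00231). Its neighbour on the X chromosome, CG1545, read 25.9, 22.7 and 24.3 against 5.06, 5.04 and 5.72 CPM (log2 fold change -2.21 ± 0.15, adjusted p = 0.000206). CG31706 read 143, 141 and 144 against 28.6, 42.3 and 44.2 CPM (log2 fold change -1.90 ± 0.17, adjusted p = 0.000753), and CG42613 389.6, 363 and 292 against 111, 112 and 132 CPM (log2 fold change -1.56 ± 0.17, adjusted p = 0.00176). All of these were without overlap, and the neuronal libraries of CG31706 read 147, 167 and 134 CPM.

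The genes bumpel, Nagk, b and mnd were named after their values were seen, outside the rule used to choose genes. Csas, Nagk, Balat, ana, alrm, wtrw, Gabat and CG42613 overlap other annotated genes.

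**Figure D2:**
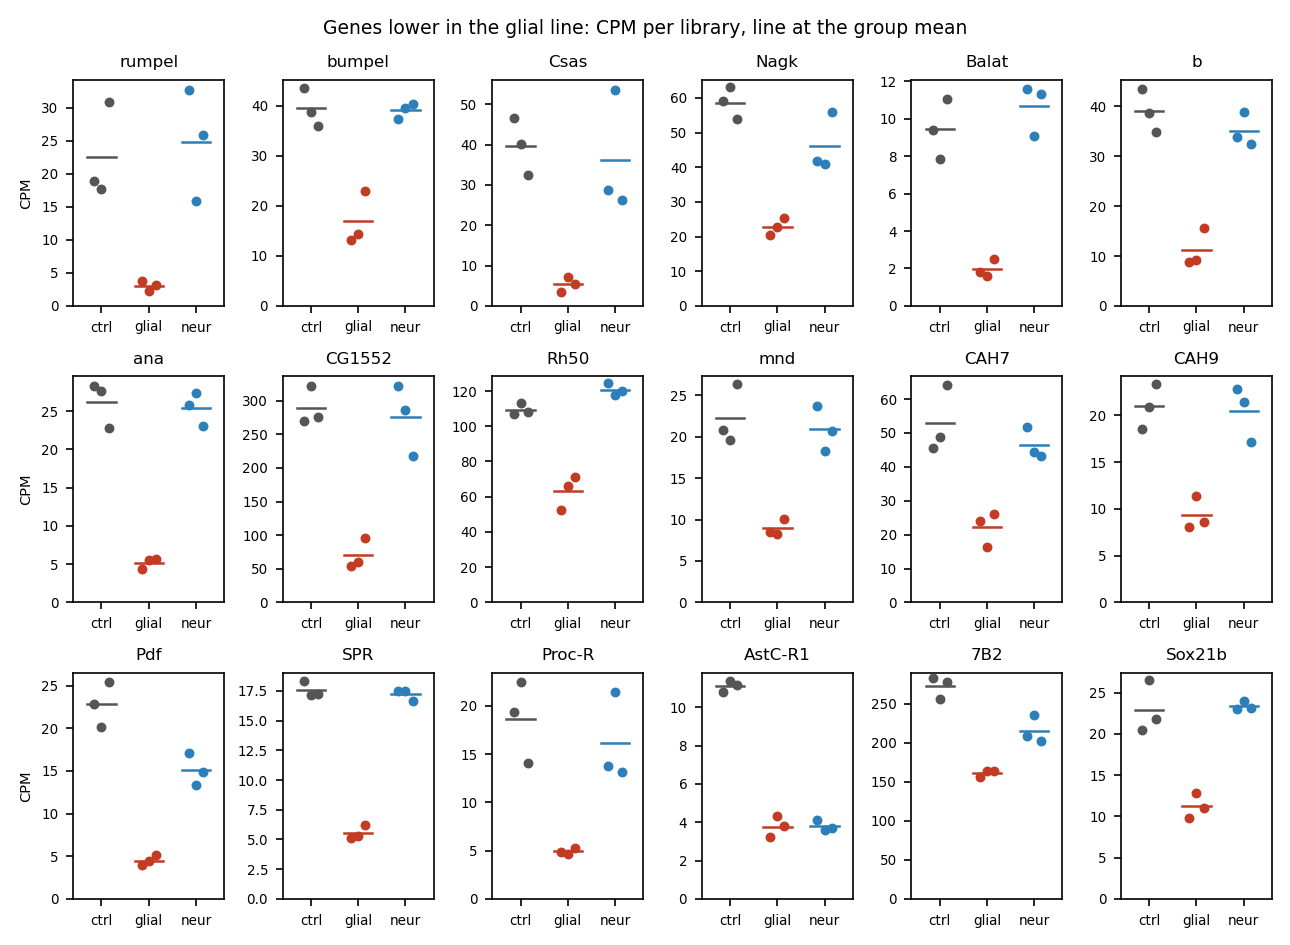
CPM in each library of the control, glial and neuronal groups for 18 genes lower in the glial line, with a line at each group mean and a linear axis from 0. All 3 glial points lie below all 3 control points in each panel, and in AstC-R1 the neuronal points lie beside the glial ones at 4.1, 3.61 and 3.7 CPM.

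Several genes of peptide signalling were also lower. Neuropeptides are short signals released by neurons and gland cells, and most act through G protein-coupled receptors. Of 38 tested neuropeptide receptor genes, a list assembled after values were seen, 5 were lower and 1 higher, which is 15.8% against 4.42% of all genes, and the median log2 fold change was -0.08.

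SPR, the receptor for sex peptide and myoinhibitory peptides, read 18.3, 17.2 and 17.3 CPM in controls and 5.12, 5.26 and 6.21 CPM in the glial line, 3.18-fold lower (log2 fold change -1.67 ± 0.13, adjusted p = 0.000252). Proc-R, the receptor for proctolin, read 19.4, 22.5 and 14.1 against 4.89, 4.66 and 5.3 CPM (log2 fold change -1.91 ± 0.24, adjusted p = 0.00302). The 3 glial values of each gene were close together and below every control. AstC-R1, a receptor for allatostatin C, read 10.8, 11.4 and 11.2 against 3.25, 4.31 and 3.78 CPM (log2 fold change -1.56 ± 0.16, adjusted p = 0.00115). The neuronal line, set against the same controls, differed as well for AstC-R1 (-1.55 ± 0.16, adjusted p = 0.00536). The glial line against the neuronal line gave -0.01 ± 0.16, adjusted p = 0.987, for this gene.

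The calls of the other receptor genes did not hold in every alternative. Lkr, the leucokinin receptor gene, read 3.23, 2.13 and 2.48 against 1.05, 0.954 and 1.33 CPM (log2 fold change -1.24 ± 0.27, adjusted p = 0.0386), and its call was lost without control 1, 2 or 3, glial 1, 2 or 3 or neuronal 3 or with scaling to library totals, the 6 libraries alone or the gut covariate (adjusted p = 0.0556 to 0.152). MsR1, a myosuppressin receptor gene, read 52.2, 46.2 and 53 against 32.6, 35.7 and 30.6 CPM (log2 fold change -0.61 ± 0.13, adjusted p = 0.0296), with the call lost without control 1 or 3 or glial 1 or 3 or with scaling to library totals (adjusted p = 0.0724 to 0.124). The 1 higher receptor gene was AstA-R2, for allatostatin A, at 2.43, 3.99 and 3.06 against 6.71, 7.99 and 5.79 CPM (log2 fold change 1.11 ± 0.22, adjusted p = 0.0242). That call was lost without control 1 or 3 or glial 1 or 2 or with scaling to library totals or the 6 libraries alone (adjusted p = 0.0532 to 0.0905).

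Pdf, the peptide of the clock neurons, read 22.9, 20.1 and 25.4 CPM in controls and 3.93, 4.39 and 5.17 CPM in the glial line (log2 fold change -2.34 ± 0.17, adjusted p = 0.000226). 7B2, which helps an enzyme that cuts peptide precursors to mature, averaged 272 ± 14 CPM in controls and 161 ± 4.81 CPM (SD, n = 3) in the glial line (log2 fold change -0.76 ± 0.11, adjusted p = 0.00624). Akh, the adipokinetic hormone of the corpora cardiaca, a gland beside the brain, read 115, 75.9 and 105 against 29.8, 26.9 and 29.2 CPM (log2 fold change -1.78 ± 0.29, adjusted p = 0.0106). Akh in neuronal libraries read 55.3, 27.7 and 26.1 CPM, so libraries 2 and 3 of that line lay at the glial level and library 1 above it. Of 15 tested neuronal markers 0 were higher and 1 was lower (6.67%, near the 4.42% of all genes), with a median of -0.13. Proc-R, AstC-R1, Lkr, MsR1, AstA-R2 and Akh were named after their values were seen, and SPR overlaps another annotated gene.

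Some genes were nearly silent in at least 1 genotype. CG3397 had 536, 405 and 672 counts in the controls and 1, 0 and 0 in the glial line. The ratio was 1900, with an exact 95% interval for counting error of 340 to 75000, and the neuronal line had 0 counts in all 3 libraries. CG9377 had 501, 394 and 566 counts against 0, 0 and 3, a ratio of 573 (196 to 2780), and 251, 252 and 248 counts in the neuronal line. The glial values of both genes were near 0 in every library, and the neuronal line was at 0 in CG3397 and between the groups in CG9377. CG32437 went the other way, with 0 counts in every control and neuronal library and 129, 34 and 44 in the glial line, at least 58.6-fold higher on a floor of 3 counts over the group (adjusted p = 0.0122). That call did not hold without glial 3 (adjusted p = 0.0592).

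CG10514 read 30.2, 24 and 35.8 CPM in controls and 1.63, 1.2 and 1.1 CPM in the glial line, 22.7-fold lower (log2 fold change -4.50 ± 0.27, adjusted p = 0.000118). Its neighbours on 3R moved with it. CG10513 read 43.2, 38.5 and 42.8 against 8.46, 9.33 and 11.9 CPM (log2 fold change -2.07 ± 0.15, adjusted p = 0.000226), and CG11892 3.67, 3.16 and 5.15 against 0.945, 1.15 and 1.16 CPM (log2 fold change -1.89 ± 0.27, adjusted p = 0.00585). The neuronal libraries of CG10514 read 16.9, 10.2 and 13.4 CPM, between the groups.

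y, which shapes black pigment in the cuticle, read 3.97, 2.22 and 2.53 CPM in controls and 0.137, 0.327 and 0.226 CPM in the glial line, 12.9-fold lower (log2 fold change -3.69 ± 0.37, adjusted p = 0.00114). gt, a transcription factor gene known from embryonic patterning, read 1.45, 2.28 and 2.46 against 0.213, 0.0545 and 0.0646 CPM (log2 fold change -4.03 ± 0.48, adjusted p = 0.00253). Both are on the X chromosome and had neuronal levels near the controls, 3.65, 4.48 and 4.34 and 1.93, 2.4 and 1.81 CPM. phr, which encodes the photolyase that repairs ultraviolet damage in DNA, read 8.41, 7.51 and 12.5 against 0.64, 0.791 and 0.291 CPM (log2 fold change -4.02 ± 0.37, adjusted p = 0.000753). The neuronal libraries of phr, at 1.05, 0.819 and 0.772 CPM, were low as well (-3.42 ± 0.36, adjusted p = 0.00579). y and phr overlap other annotated genes.

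CG40470 and CG33296, whose roles the annotation does not name, were also among the lowest in relation to control. CG40470 read 18.1, 17.2 and 24.1 against 1.56, 1.61 and 1.62 CPM (log2 fold change -3.63 ± 0.26, adjusted p = 0.000226), and CG33296 26, 22.4 and 22.9 against 3, 1.55 and 2.62 CPM (log2 fold change -3.31 ± 0.25, adjusted p = 0.000228). Neither gene's groups overlapped, and CG40470 overlaps noncoding RNA genes.

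For a few genes the neuronal line, which shares the control libraries, lay close to the glial one. Naxd, the enzyme that repairs hydrated NADH, read 33.6, 35.2 and 39 CPM in controls, 14.5, 13.8 and 14.4 in the glial line and 13, 11.6 and 11.6 in the neuronal line. Set against control, Naxd had log2 fold changes of -1.34 ± 0.11 with the glial driver (adjusted p = 0.000519) and of -1.57 ± 0.12, adjusted p = 0.000845, with the neuronal one. CG6654 read 28, 25.9 and 27.2, 6.85, 7.33 and 9.18 and 8.57, 8.24 and 7.38 CPM in the same order of groups, and dlp, a glypican that carries secreted growth factors, 93.1, 97.2 and 86.9, 45.4, 56.4 and 41.8 and 49, 59.6 and 50.3 CPM. The glial log2 fold changes were -1.80 ± 0.15 (adjusted p = 0.0004) and -0.95 ± 0.14 (adjusted p = 0.00624), and both genes overlap another annotated gene. These genes were picked after their values were seen, for their likeness in both lines, and that likeness is a description.

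Among the higher genes, CG15784 had the smallest p together with w. It read 44.5, 44.1 and 46.8 CPM in controls and 439, 563 and 452 CPM in the glial line, 10.7-fold higher (log2 fold change 3.42 ± 0.15, adjusted p = 1.38e-05). The neuronal libraries read 43.6, 46.7 and 54.6 CPM, near the controls, and the log2 difference between glial and neuronal lines was 3.33 ± 0.15, adjusted p = 1.72e-05. Its role is not named in the annotation.

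Arc1 and Arc2 encode relatives of retroviral Gag proteins, and Arc1 forms capsids that carry RNA out of neurons at the larval neuromuscular junction. Arc1 read 525, 605 and 331 CPM in controls and 1499.6, 2162 and 1956 CPM in the glial line, 3.85-fold higher (log2 fold change 1.94 ± 0.27, adjusted p = 0.00527). Arc2 read 32.9, 35.8 and 41.8 against 65.5, 81 and 70.1 CPM (log2 fold change 0.97 ± 0.14, adjusted p = 0.00531). The neuronal libraries read 293, 437 and 309 CPM for Arc1 and 23, 26.4 and 21.6 CPM for Arc2, the latter below every control. On a list of 10 immediate early, activity-linked and other genes 3 were higher and 0 lower (30% against 4.42% of all genes), at a median of 0.38. The third was sr, whose call at 14.5, 15.8 and 11.9 against 21.4, 30.9 and 20.4 CPM (log2 fold change 0.79 ± 0.19, adjusted p = 0.0489) was lost without control 1, 2 or 3, glial 1, 2 or 3 or neuronal 1, 2 or 3 or with RLE size factors, scaling to library totals, limma-voom, no low-count filter, the 6 libraries alone or the gut covariate (adjusted p = 0.0516 to 0.149).

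Had1, a beta-hydroxyacid dehydrogenase gene, read 52.9, 56.6 and 58.9 CPM in controls and 365, 222 and 420.4 CPM in the glial line (log2 fold change 2.58 ± 0.37, adjusted p = 0.00583). The antisense RNA asRNA:CR45485, annotated over it, read 16.5, 21.8 and 21.6 against 109, 63 and 137 CPM (log2 fold change 2.37 ± 0.33, adjusted p = 0.00503), with glial library 2 lowest in both. The 2 genes share bases and strand handling is not given, so reads cannot be told apart.

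Gnmt, an enzyme that uses methyl groups to turn glycine into sarcosine, read 13.5, 13.7 and 20.1 CPM in controls and 86.6, 59.3 and 125 CPM in the glial line, 5.71-fold higher (log2 fold change 2.51 ± 0.32, adjusted p = 0.00341). The neuronal libraries read 3.7, 4.96 and 6.84 CPM, below every control, with a log2 fold change against control of -1.61 ± 0.32, adjusted p = 0.0639. Of 10 tested genes of serine and one-carbon metabolism, a list assembled after values were seen, 5 were higher and 0 lower (50% against 4.42% of all genes), and the median was 0.67. Mthfs, which returns a storage form of folate to use, read 16.3, 16.6 and 20 against 40.6, 29.6 and 49 CPM (log2 fold change 1.17 ± 0.19, adjusted p = 0.0117), with the call lost without control 1 or with scaling to library totals (adjusted p = 0.0545 to 0.0658). Shmt, which moves a carbon unit between serine and glycine, read 105, 108 and 102 against 186, 147 and 170.0 CPM (log2 fold change 0.67 ± 0.15, adjusted p = 0.0374), and its call was lost without control 1, 2 or 3, glial 1 or 3 or neuronal 1 or with scaling to library totals or the gut covariate (adjusted p = 0.0571 to 0.198). CG3999 had a log2 fold change of 1.08 ± 0.19 (adjusted p = 0.0136), lost without control 1 or 2 or glial 3 (adjusted p = 0.0508 to 0.0557). CG11899 was at 0.67 ± 0.16 (adjusted p = 0.046), lost without control 1, 2 or 3, glial 1, 2 or 3 or neuronal 1 or 3 or with scaling to library totals, no low-count filter, the 6 libraries alone or the gut covariate (adjusted p = 0.0531 to 0.163). Gnmt, Mthfs and Shmt were also named after values were seen, as was CG3999. Gnmt, Mthfs, Shmt and CG11899 overlap other annotated genes.

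ninaD, a scavenger receptor that takes up carotenoids, the source of the visual pigment, read 2.93, 2.78 and 4.09 CPM in controls and 25.1, 14.1 and 22.3 CPM in the glial line (log2 fold change 2.65 ± 0.32, adjusted p = 0.00291). Rdh1, a retinol dehydrogenase gene by name, read 6.19, 5.8 and 7.42 against 31.1, 18.9 and 23.1 CPM (log2 fold change 1.91 ± 0.22, adjusted p = 0.00206). Both were without overlap. AOX2, an aldehyde oxidase gene, read 0.0529, 0.0887 and 0.12 against 1.4, 1.75 and 3.3 CPM (log2 fold change 4.55 ± 0.57, adjusted p = 0.00318).

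Genes known from stress, injury and repair were among those called. upd3, a cytokine that activates JAK/STAT signalling, read 0.0529, 0.0592 and 0 CPM in controls and 0.854, 1.01 and 1.26 CPM in the glial line (log2 fold change 4.74 ± 0.70, adjusted p = 0.00667), a low level throughout. Mmp1, a protease that cuts the extracellular matrix, read 20.8, 30.6 and 20.2 against 60.7, 48.7 and 53 CPM (log2 fold change 1.18 ± 0.18, adjusted p = 0.00684). These 2 were the called members among 13 tested genes of a list of JNK stress signalling (15.4% against 4.42% of all genes). That list holds kinases, transcription factors and targets, with a median of 0.44.

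Xrp1, a transcription factor gene induced by DNA damage and ribosome stress, averaged 136 ± 18.4 CPM in controls and 249 ± 14.2 CPM (SD, n = 3) in the glial line (log2 fold change 0.87 ± 0.13, adjusted p = 0.00844). Ku80, which binds broken DNA ends, read 6.77, 6.95 and 6.29 against 15.1, 17 and 12.9 CPM (log2 fold change 1.17 ± 0.16, adjusted p = 0.00481). RnrL, the large subunit of the enzyme that makes deoxynucleotides, read 5.02, 4.17 and 4.21 against 12.5, 13.2 and 14.2 CPM (log2 fold change 1.57 ± 0.17, adjusted p = 0.00188). The break-processing nuclease gene mre11 fell, from 12.5, 13.8 and 15.3 to 6.97, 6.52 and 5.62 CPM (log2 fold change -1.12 ± 0.16, adjusted p = 0.00527). Together with phr these made 3 higher and 2 lower calls among 15 tested DNA damage genes (33.3% against 4.42% of all genes). The median was 0.38, and the list had calls in both directions. The neuronal libraries of mre11 read 7.71, 8.01 and 9.56 CPM. The list was assembled, and Ku80 and mre11 were named, after values were seen.

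rho, a membrane protease that releases EGFR ligands, read 29.9, 30.5 and 25.1 CPM in controls and 69.3, 88 and 66.4 CPM in the glial line (log2 fold change 1.39 ± 0.14, adjusted p = 0.00114). S, which escorts those ligands through the cell, read 29.8, 29.9 and 26.2 against 46, 55.4 and 38.2 CPM (log2 fold change 0.70 ± 0.15, adjusted p = 0.0342), with the call lost without control 1, 2 or 3, glial 1 or 2 or neuronal 1 or 3 or with scaling to library totals or the 6 libraries alone (adjusted p = 0.0533 to 0.149). rl, the MAP kinase of the pathway, was lower, at 46.6, 39.1 and 47.5 against 27.9, 28.7 and 24.8 CPM (log2 fold change -0.71 ± 0.12, adjusted p = 0.0122), and its call was lost without control 1 or with scaling to library totals (adjusted p = 0.0674 to 0.0795). Of 19 tested EGFR pathway genes, also listed after values were seen, 2 were higher and 2 lower (21.1% called), at a median of 0.03. cv-2, which binds BMP ligands outside cells, read 16.8, 19.3 and 21.1 against 46.9, 39.2 and 37.1 CPM (log2 fold change 1.11 ± 0.13, adjusted p = 0.00277). It was the only member called among 19 tested BMP and TGF-beta genes, a share of 5.26% that is near the 4.42% of all genes. The adhesion gene Fas3 read 54, 53.1 and 60.9 against 84.8, 102 and 108 CPM (log2 fold change 0.81 ± 0.12, adjusted p = 0.00761). mre11, Mmp1, Rdh1, rho and Fas3 overlap other annotated genes, and S and rl were named after their values were seen.

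**Figure D3:**
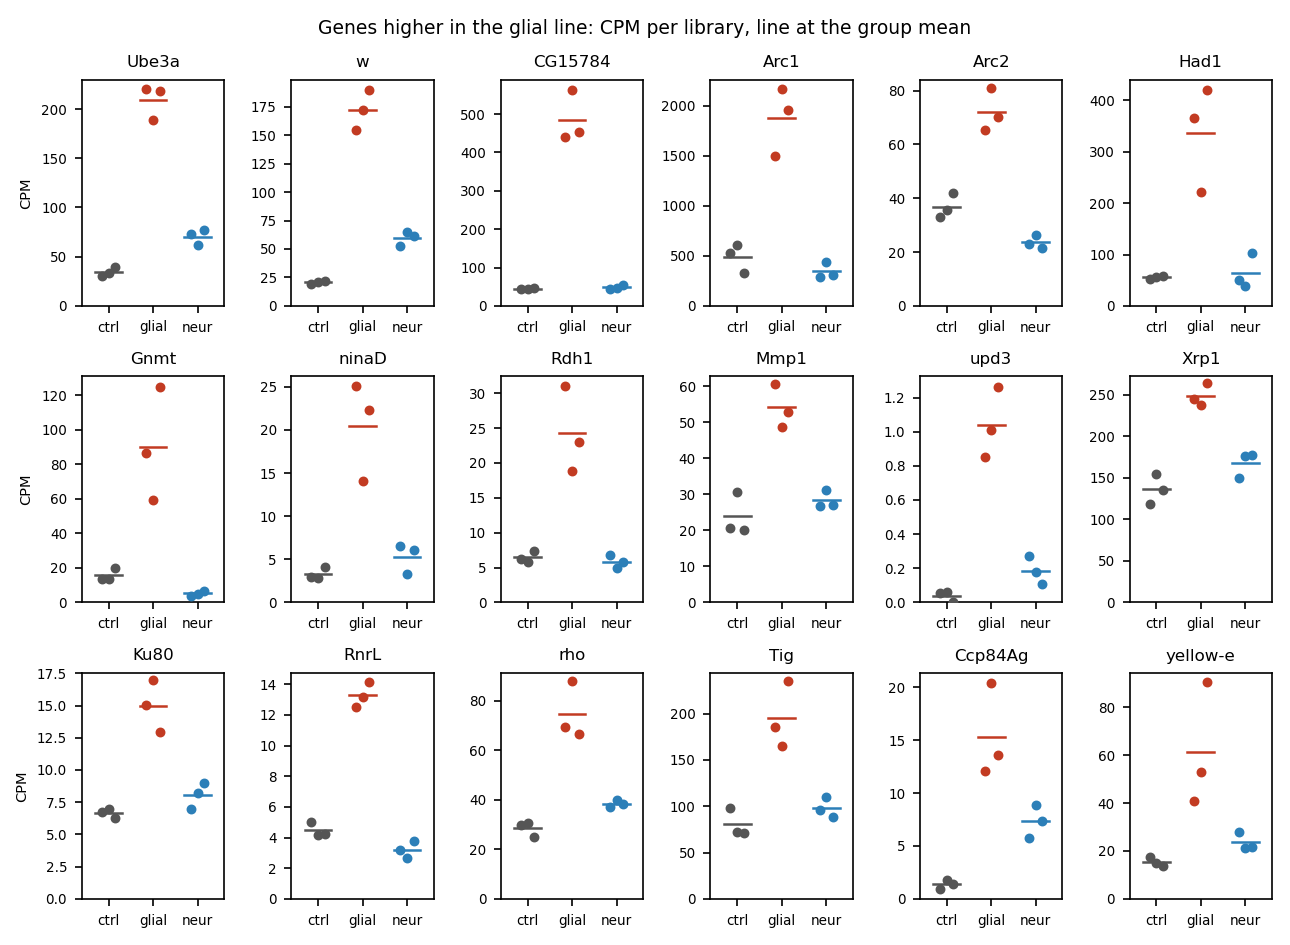
CPM in each library of the control, glial and neuronal groups for 18 genes higher in the glial line, with a line at each group mean and a linear axis from 0. All 3 glial points lie above all 3 control points in each panel, and in CG15784 the neuronal points stay near the controls at 43.6, 46.7 and 54.6 CPM.

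The called genes of chitin and cuticle were mostly higher. Chitin is the sugar polymer of the insect cuticle and of the lining of the tracheae, the breathing tubes that also enter the brain. Among gene families with at least 5 tested members, formed by symbol stem, the chitinase (Cht), GstD and chitinase-like Idgf stems had the highest share called, with 3 of 9, 3 of 9 and 2 of 6 members higher. Of 37 tested Cpr cuticle protein genes 9 were higher and 2 lower, against 4.42% of all genes. The GstD calls held in every alternative, whereas each Cht and Idgf call was lost in some. Of the Cpr calls only those of Cpr72Ec, Cpr76Bd and Cpr97Ea, all higher, held in every alternative. Of 166 such families 48 had a called member and 15 had at least 20% of members called.

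**Figure D4:**
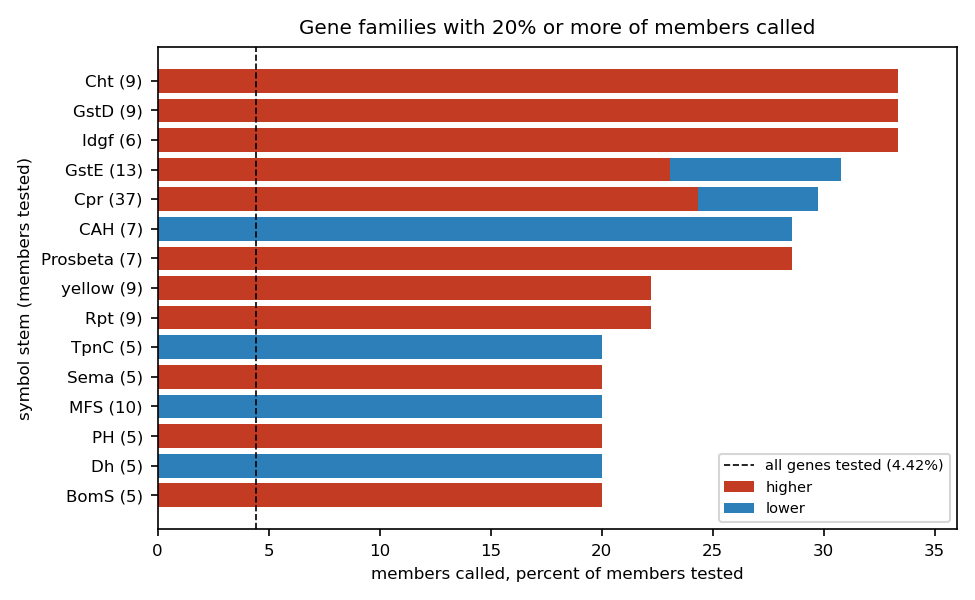
Share of tested members called higher (red) or lower (blue) in the 15 symbol-stem families with at least 20% of members called, with the number of members tested in brackets. The dashed line marks the 4.42% called among all genes tested. Families are small, so 1 gene is 20% of a family of 5.

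Ccp84Ag, a cuticle protein gene of a cluster on 3R, read 0.952, 1.77 and 1.42 CPM in controls and 12.1, 20.4 and 13.6 CPM in the glial line, 11.1-fold higher (log2 fold change 3.47 ± 0.31, adjusted p = 0.000689). The neuronal libraries, at 5.8, 8.88 and 7.4 CPM, also differed from the controls (2.41 ± 0.30, adjusted p = 0.00982). Cpr97Ea read 26.6, 25.8 and 23.3 against 70.9, 59.1 and 117 CPM (log2 fold change 1.71 ± 0.23, adjusted p = 0.00443), and Cpr72Ec 15.8, 15.4 and 19 against 67.4, 55.8 and 102 CPM (log2 fold change 2.16 ± 0.24, adjusted p = 0.00202). Every glial library of these 3 genes lay above every control. For Cpr72Ec the neuronal libraries, at 8.55, 8.16 and 12 CPM, were all below the controls. yellow-e, of the gene family of y, read 17.3, 15 and 13.9 against 40.9, 53.1 and 90.4 CPM (log2 fold change 1.99 ± 0.27, adjusted p = 0.0049). TwdlG, of the Tweedle cuticle protein family, went down, from 9.36, 8.9 and 8.04 to 3.46, 4.53 and 3.68 CPM (log2 fold change -1.17 ± 0.16, adjusted p = 0.0049), and was named after its values were seen.

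Of 15 tested genes of chitin synthesis and deacetylation 5 were higher and 0 lower (33.3% against 4.42% of all genes), at a median of 0.54. Each of the 5 calls was lost in some alternatives. kkv, the chitin synthase of the cuticle, read 21.7, 20 and 19.9 against 46.9, 30.2 and 47.2 CPM (log2 fold change 1.01 ± 0.19, adjusted p = 0.0223), with the call lost without control 1, 2 or 3 or glial 1 or 3 or with scaling to library totals (adjusted p = 0.0595 to 0.0944). The deacetylase gene verm read 111, 101 and 97.3 against 171, 207 and 297 CPM (log2 fold change 1.12 ± 0.19, adjusted p = 0.0145), and its call was lost without control 1, 2 or 3 or with the 6 libraries alone (adjusted p = 0.0522 to 0.0579). serp, its partner enzyme, read 104, 87.1 and 77.9 against 144, 154 and 238 CPM (adjusted p = 0.0281) and lost its call without control 1, 2 or 3, glial 3 or neuronal 3 or with the 6 libraries alone (adjusted p = 0.0513 to 0.0894). Cda5, at 0.81 ± 0.14 (adjusted p = 0.0122), lost it without control 2 or glial 3 (adjusted p = 0.0561). reb, needed for chitin deposition in the tracheae, was at 1.43 ± 0.29 (adjusted p = 0.0284) and lost it without control 1 or 2, glial 1 or 3 or neuronal 3 or with scaling to library totals, the 6 libraries alone or the gut covariate (adjusted p = 0.0508 to 0.119). In the neuronal line kkv read 34.8, 25.7 and 35.2 CPM. kkv and Cda5 overlap other annotated genes.

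Chitin-binding proteins gave 3 higher and 0 lower calls of 6 tested (50% against 4.42% of all genes), at a median of 0.65. obst-B read 65.3, 68 and 75 CPM in controls and 144, 118 and 198 CPM in the glial line (log2 fold change 1.14 ± 0.19, adjusted p = 0.0122), with the call lost without control 1 (adjusted p = 0.0674). obst-A was at 1.04 ± 0.22 (adjusted p = 0.0327), and lost its call without control 1, 2 or 3, glial 1 or 3 or neuronal 1 or 3 or with scaling to library totals, the 6 libraries alone or the gut covariate (adjusted p = 0.051 to 0.116). Peritrophin-A was at 0.81 ± 0.19 (adjusted p = 0.048), and lost it without control 1, 2 or 3, glial 2 or 3 or neuronal 1, 2 or 3 or with scaling to library totals, limma-voom, no low-count filter, the 6 libraries alone or the gut covariate (adjusted p = 0.0528 to 0.151). Among the chitinase-like growth factors Idgf4 read 497, 429 and 468 against 744, 966 and 1059 CPM (log2 fold change 0.99 ± 0.16, adjusted p = 0.0107), with the call lost without control 2 (adjusted p = 0.0584). The chitin lists were assembled after values were seen.

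Genes that harden and colour cuticle went both ways. Of 12 tested, on a list assembled after values were seen, 6 were higher and 3 lower, at a median of 1.06. The share called was 75%, against 4.42% of all genes. Each of the 6 higher calls was lost in some alternatives, and of the 3 lower calls only those of y and b held in every alternative. ple, the tyrosine hydroxylase that starts dopamine and pigment synthesis, read 56.7, 92.6 and 55.7 against 145, 169.9 and 390.3 CPM (log2 fold change 1.78 ± 0.38, adjusted p = 0.0325). Glial library 3 was the highest, and the call was lost without control 1 or 3, glial 3 or neuronal 1 or 3 or with the 6 libraries alone (adjusted p = 0.0533 to 0.136). Duox, which makes hydrogen peroxide at surfaces, was at 1.01 ± 0.16 (adjusted p = 0.0091), with the call lost with scaling to library totals (adjusted p = 0.0782). The lower members were y, b and e, described above.

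Some matrix and blood cell genes were higher. The basement membrane is the sheet of laminin and collagen under epithelia and around the brain. Of 16 tested members 6 were higher and 0 lower (37.5% against 4.42% of all genes), at a median of 0.20. These were LanA, Tig, Mmp1, LanB1, Ppn and prc, of which only Tig and Mmp1 were called under all 16 alternatives. The protease gene Mmp1 was also counted on the JNK list, and Ppn is also on the hemocyte list below. Tig, an integrin ligand, read 98.3, 71.9 and 71.1 CPM in controls and 186, 165 and 235 CPM in the glial line (log2 fold change 1.28 ± 0.18, adjusted p = 0.00585). LanA, the laminin alpha chain, read 57.6, 51.7 and 58.9 against 109, 92.7 and 100.5 CPM (log2 fold change 0.85 ± 0.11, adjusted p = 0.0047), and its call was lost with scaling to library totals (adjusted p = 0.0966). The laminin beta chain gene LanB1 was at 0.74 ± 0.14 (adjusted p = 0.0204), with the call lost without control 1 or 2 or glial 1 or 3 or with scaling to library totals or the 6 libraries alone (adjusted p = 0.0516 to 0.204). Col4a1 and vkg, the chains of type IV collagen, were not called.

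Hml, the clotting protein of plasma blood cells, read 96.4, 90.5 and 106 CPM in controls and 228, 203 and 223 CPM in the glial line (log2 fold change 1.16 ± 0.17, adjusted p = 0.00669). Tep4, a thioester protein of immunity, read 34.3, 30.9 and 56 against 140.1, 143 and 149 CPM (log2 fold change 1.83 ± 0.22, adjusted p = 0.00277). Of 12 tested hemocyte markers 3 were higher and 0 lower (25% against 4.42% of all genes), at a median of 0.56. The 13 markers summed to between 1370 and 1930 CPM in controls and between 1700 and 2680 CPM in the glial line. The part of blood cell number in these values was not tested. The membrane list was assembled, and Tig, LanA, LanB1 and Tep4 were named, after values were seen, and Tig overlaps another annotated gene.

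**Figure D5:**
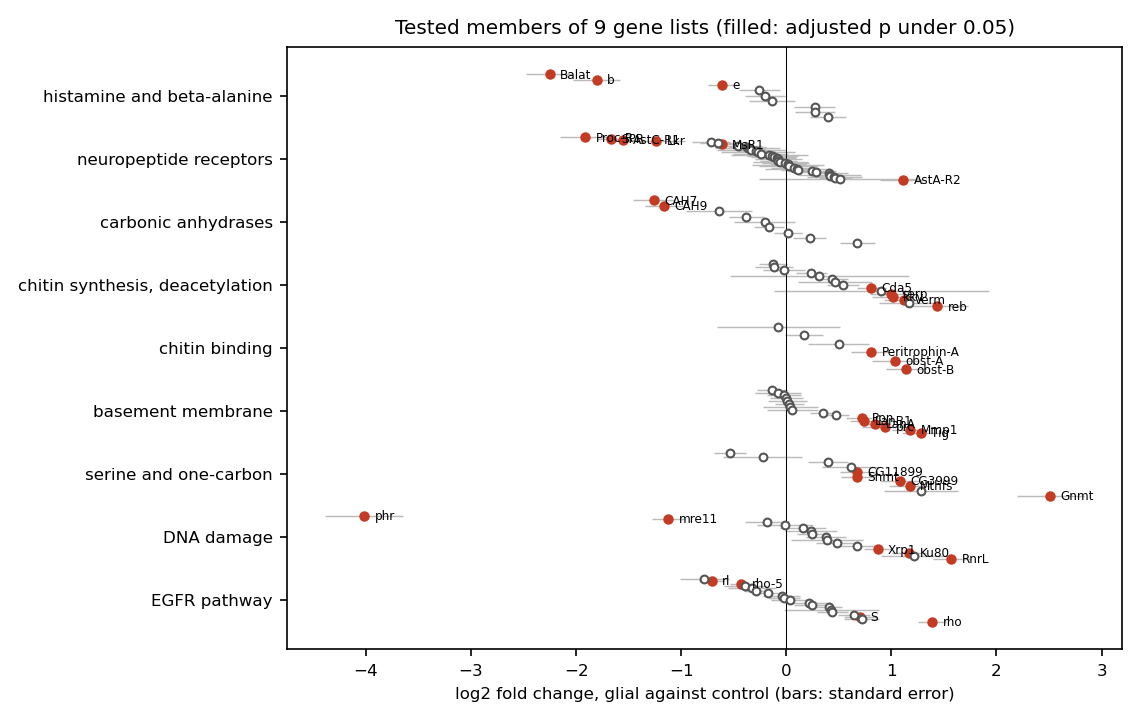
Log2 fold change of the glial line against the control for every tested member of 9 gene lists, with bars for the standard error of each fit. Filled points passed an adjusted p of 0.05, and the lists were assembled after values were seen. The called members of the chitin, chitin-binding, basement membrane and one-carbon lists lie above 0, and those of the histamine and carbonic anhydrase lists lie below 0.

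Some called genes were neighbours. When tested genes were put in order along each arm, 47 runs of 2 or more adjacent called genes held 103 genes. In 36 runs all members moved 1 way, in 11 they moved both ways, and in 11 runs members overlap each other. In 8 runs 3 or more genes stood together. The run on 2R of Idgf5, GstE1, GstE2 and GstE3 went both ways, with log2 fold changes of 1.16, 1.25, -1.47 and 1.01. GstE1, a glutathione transferase gene, read 46.8, 40.1 and 35.3 against 74.8, 108 and 109 CPM (adjusted p = 0.00585), while its neighbour GstE2 read 10.6, 8.28 and 15.4 against 4.03, 4.83 and 3.56 CPM (adjusted p = 0.0297).

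GstE2 lost its call without control 1 or 3, glial 1, 2 or 3 or neuronal 3 or with scaling to library totals (adjusted p = 0.0524 to 0.109). GstE3 lost it without control 1, 2 or 3, glial 1 or 3 or neuronal 1 or 3 or with scaling to library totals, limma-voom, the 6 libraries alone or the gut covariate (adjusted p = 0.051 to 0.167), and Idgf5 without control 1, 2 or 3 or glial 2 or 3 (adjusted p = 0.0547 to 0.0888). Near-identical genes of a cluster can share reads, and how the counting treated such reads is not given in the sources used here. The 3L run held Ube3a itself, with nkt at -1.86 and CG7607 at -1.13. nkt read 56, 54.7 and 90.5 against 20, 17.1 and 18.2 CPM (adjusted p = 0.0112), and CG7607 read 20.8, 16.2 and 19.7 against 7.98, 7.93 and 9.99 CPM (adjusted p = 0.0313). nkt was no longer called without glial 3 (adjusted p = 0.0504), nor CG7607 without control 1 or 3, glial 1, 2 or 3 or neuronal 3 or with scaling to library totals (adjusted p = 0.0553 to 0.122). Both genes overlap Plod.

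Many lists gave few or no calls, though on some the share was above that of all genes. Of 26 tested autophagy and lysosome genes 0 were higher and 1 lower, and of 19 genes of the unfolded protein response 1 was higher. Cell cycle genes gave 1 higher call of 23, insulin and TOR genes 1 of 18, and cncC and antioxidant genes 1 of 16. By symbol stem, the share called in either direction was 33.3% for GstD, 30.8% for GstE, 17.9% for cytochrome P450 (Cyp) and 10% for UDP-glycosyltransferase (Ugt) genes. Metal handling gave 1 higher and 1 lower call of 19, the higher being Tsf1, the iron carrier, at 284, 309 and 188 against 883, 653 and 962 CPM (log2 fold change 1.68 ± 0.27, adjusted p = 0.00999). Axon and synapse adhesion genes gave 3 higher calls of 31. Genes of ecdysone signalling and response gave 1 lower call of 18. A list of Npc1, Npc2 and other sterol genes gave 1 higher call of 9. Clip proteases and serpins gave 2 higher calls of 16. Genes of peroxisomes and fatty acid oxidation and of nucleotide metabolism each gave 1 lower call, of 19 and 17. The shares were 12.5% for clip proteases and serpins, 11.1% for sterol genes, 10.5% for metal handling and 9.68% for axon and synapse adhesion. On the other lists of this paragraph they ran from 3.85% to 6.25%, and over all genes the share was 4.42%.

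There were 0 edgeR calls among 15 cell death genes, 12 juvenile hormone genes, 11 Notch genes, 15 genes of piRNA, siRNA and miRNA silencing, 15 histone and chromatin genes and 16 takeout genes. The markers of gut (24 tested), ovary (5), testis (5), photoreceptors (15) and muscle (15) had 0 calls as well, with median log2 fold changes of 0.64, -1.44, -0.07, -0.06 and 0.08. Of the 148 genes on these lists 25 had an unadjusted p under 0.05, DESeq2 called 11, and limma-voom called 0. Over all 11430 genes tested these numbers were 2280, 1110 and 451. The 11 DESeq2 calls were Cp7Fa, twe, inaD, rpr, neur, piwi, AGO3, krimp, His4r, Jhbp11 and Jhbp13. Of 12 fat body markers 1 was higher (8.33% against 4.42% of all genes), at a median of 0.30.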

How the data were processed

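The authors deposited raw counts, whole numbers per RefSeq transcript, for 9 libraries. STAR and DESeq2 are named in the submitters' processing notes without a role or version, and the sources used here give neither the counting program, the genome build nor the strand handling. Of 31838 transcripts 31673 matched a gene of the RefSeq annotation by accession and were summed to 15248 genes, and 165 stayed as entries of their own (0.3% to 0.68% of counts, 92 tested). Gene names come from that annotation, and no coordinates or sequences are printed.

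Library totals ran from 35550949 to 60322417 counts. The test was edgeR's quasi-likelihood test (edgeR 4.0.16, R 4.3.3) after TMM scaling. Genes with low counts were left out by filterByExpr, at a count of 10 and a total of 15. The model had group alone as its term, and all 9 libraries entered it so that they share 1 estimate of the spread. P-values are adjusted by Benjamini-Hochberg over all 11430 genes tested, and an adjusted p under 0.05 is a call. Standard errors were derived from each log2 fold change and the F statistic of its test. Samples were grouped by the genotype in their labels. The fit was also run on simulated counts, drawn independently for each gene and library. They hold no shared tissue differences, so they cannot show how the fit handles those of these libraries.

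The alternatives were RLE size factors, library totals, DESeq2 1.42.0, limma-voom 3.58.1, no low-count filter, the 6 libraries alone, a replicate block, gut marker level as a covariate, single transcripts, and each of the 9 libraries left out. Intervals and floors cover counting error only, and PCR copies are not independent molecules.

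Genes, families and lists were chosen with earlier results of these data known. The naming rule took Ube3a, w, repo and elav. Among called genes with a mean of at least 20 counts and no overlap between groups, it took the 25 largest changes, 20 smallest p and 20 highest levels in each direction. It also took called genes in runs of 3 or more neighbours, and up to 5 called members per family or list. Of 107 genes named with values, 35 fall outside it, among them those chosen from the 12 lists assembled after values were seen.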

Additional observations from a re-analysis of the deposited data

How the results depend on the processing

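All genes named with a call kept their direction under the gene-level alternatives and the replicate block; single transcripts were run for the counts of calls only. Ube3a kept its call in these fits, with log2 fold changes from 2.48 to 2.70. The number of genes called depended on the setting. It was 505 (290 higher and 215 lower) as reported, 503 with RLE size factors, 451 with limma-voom, 456 with no low-count filter and 496 with the gut covariate. Library totals gave 281 (126 higher), DESeq2 gave 1110 (630 higher and 480 lower), and the 6 libraries alone gave 274 (141 higher and 133 lower). Single transcripts gave 946 of 26410 (489 higher and 457 lower), a larger number of features tested. Leaving out 1 library gave between 181 and 447 calls, 87 to 252 higher and 94 to 195 lower. In the fits with a replicate block, the count was 281 (157 higher and 124 lower). Correlations of deviations between same-numbered libraries were -0.34, -0.57 and -0.37 for control and glial, 0.37, 0.37 and -0.11 for control and neuronal, and -0.11, -0.05 and 0.03 for glial and neuronal. Not every pair was over 0.1, so the numbers are not taken to pair the samples. Outside the block, 1712 values were recomputed for named genes, of which 199 lost the call, and the cause was not tested.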
